A study of Mus musculus with 26 samples.

Results

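The promoters of 8 genes were examined in mouse embryonic stem cells (mESCs). They were chosen because bivalent chromatin was strongly reduced there after loss of DPPA2 and DPPA4, or because they are among the loci listed by the study. The members are Gm1979, Pdzrn4, Fem1al, Csf1, Fam163a, Lmo1, Lypd6b and Mfsd4a, out of 26180 genes with a curated RefSeq start site. A member's region was the one nearest to its start site and at most 5 kb away in each deposited table (for Gm1979, the region on chromosome 5 from 26006551 to 26007900), which gave 85 of the 338442 regions listed in the 12 tables. In the WT K4-K27 table all 8 members had such a region, 9 in all because Lmo1 has 2 start sites with a region each. All of these regions span the start site except that of Gm1979, which begins 1824 bp upstream of it, and the closest region left out by the distance rule lies 5424 bp from a start site (Gm1979, total H3K27me3 DKO minus WT of -0.26). The members were chosen from the difference between double knockout (DKO) and wild-type (WT) clones, so that difference is described below without a test.

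H3K4me3 is a histone mark of promoters that are active or poised, and H3K27me3 is the mark set by Polycomb repressive complex 2 at repressed developmental genes. Promoters that carry both are called bivalent and are thought to be held ready for activation during differentiation. DPPA2 and DPPA4 are small nuclear proteins of early embryos and mESCs, known as epigenetic priming factors, that are required for bivalency at a subset of these promoters.

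Chromatin was digested with MNase to mostly mononucleosomes and immunoprecipitated sequentially, with H3K4me3 first and H3K27me3 second (K4-K27) or in the opposite order (K27-K4), to enrich nucleosomes captured by both antibodies. Carry-over from the first precipitation cannot be told apart from double-marked nucleosomes in a single order. An aliquot taken after the first precipitation gave the totals of H3K4me3 and of H3K27me3 from the same chromatin (in-line totals), and an IgG–IgG reChIP served as the negative control. All cells were E14 mESCs grown on gelatin in serum with LIF. E14 cells of WT genotype, described as non-clonal, were profiled in 2 replicates of each ChIP, collected on different days and sequenced in batches A and B, with 1 IgG–IgG library (replicate 1). The WT clones 57 and 58 and the DKO clones 43 and 53, in which both Dppa2 and Dppa4 are disrupted, were sequenced in batch C with 1 library per clone and ChIP, and only WT clone 57 had an IgG–IgG library. A genotype is therefore represented by 2 clones, and p-values measure the spread between these libraries. Differences between E14 cells and the clones cannot be told apart from the sequencing batch. The H3K4me3 antibody has also been reported to bind H3K4me2.

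The values are log2 RPM per kb of region (RPM, reads scaled to the size of the library), called level below, and a difference of 1 is a doubling. Library depth ranged from 6741245 to 47903464 reads. Total H3K4me3 was higher in WT clone 57 than in WT clone 58 by a median of 1.16 over the 26544 regions of the WT K4-K27 table, and each of the 8 members shared this direction in all 4 ChIPs. Total H3K4me3 at the Dppa2 and Dppa4 promoters was not called different in the DKO clones, with DKO minus WT differences of 0.37 (adjusted p = 1.00, limma) and 0.08 (adjusted p = 1.00, limma), and since the deletion may leave the promoter this does not check the labels. All 7 mESC markers listed (such as Pou5f1, Nanog and Zfp42) had a promoter region of total H3K4me3, with the lowest at 1.38 in WT clone 58, and 0 were called different by limma (0 at an unadjusted p under 0.05). Of 5 fibroblast markers, 4 had a region and 1, Twist2, fell in the DKO clones by 2.65 (adjusted p = 0.000214, limma). In the reChIPs Twist2 fell by 4.48 (K4-K27, adjusted p = 3.97e-08, limma) and by 4.09 (K27-K4, adjusted p = 0.00027, limma), while Col1a1 (0.77 and 0.53), Thy1 (0.09 and 0.04) and Col1a2 (-1.34 and -0.65) were not called there by limma. Of 5 endoderm markers 4 had a region, and 0 were called by limma (0 at an unadjusted p under 0.05). The summed linear levels of the fibroblast list were 21.1 and 9.69 in the WT clones and 10.9 and 10.2 in the DKO clones, and those of the mESC list were 56.9 and 23.7 against 50.5 and 35.9. Their part in the members' values was not tested.

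The median DKO minus WT difference over the members was -3.35 in K4-K27, with members from -6.70 to -1.18, and -2.48 in K27-K4, with members from -5.76 to -0.70. In the in-line totals it was -2.30 (H3K4me3, from -3.51 to -0.49) and -1.34 (H3K27me3, from -2.59 to 0.19), with Lmo1 taken at its upstream start. Over all 26544 regions the medians were -0.34 and -0.07 in the reChIPs and 0.01 and 0.03 in these totals. Both DKO values lay below both WT values at 8 of 8 members for total H3K4me3, where this held for 17.2% of all regions, at 5 of 8 for total H3K27me3 (15.8% of regions), at 8 of 8 for K4-K27 (32.9%) and at 7 of 8 for K27-K4 (24.3%). The rule used this contrast, and nothing is read from these counts. The members fell into a range of patterns rather than one, from lower values in all 4 ChIPs to a smaller K4-K27 difference with overlapping total H3K27me3 values.

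**Figure D1:**
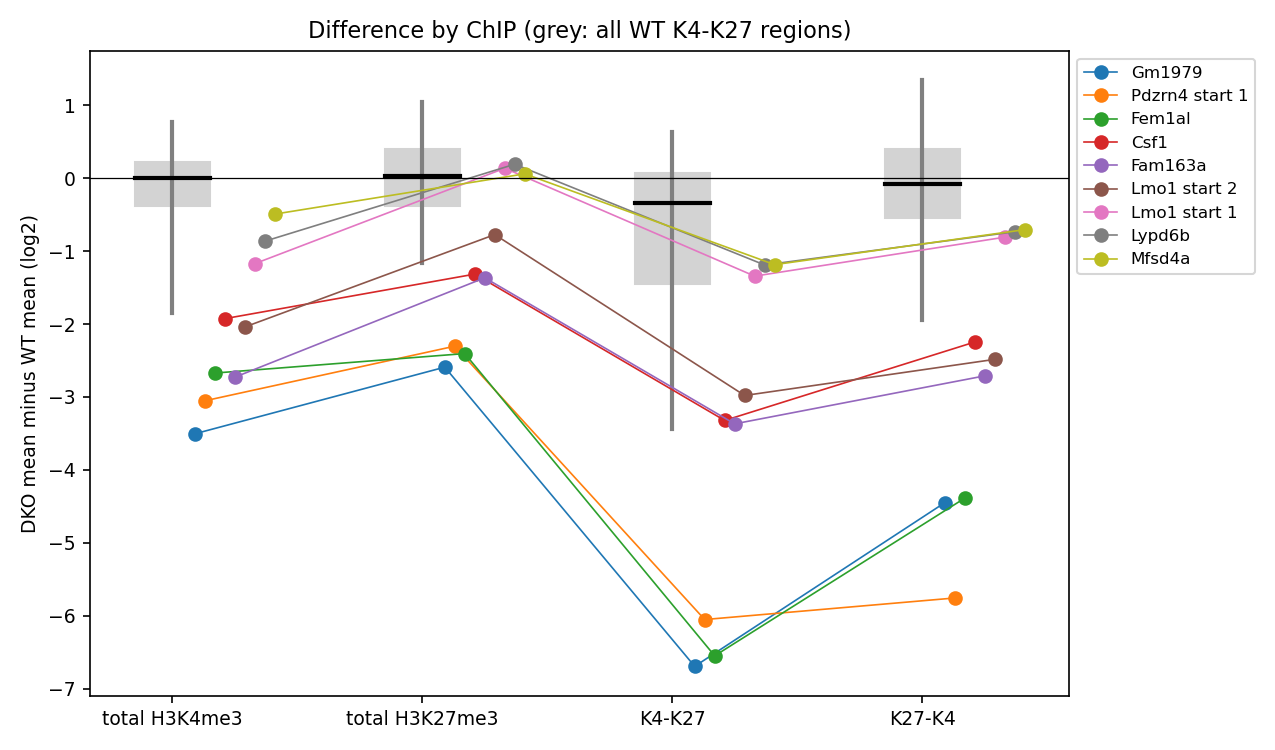
DKO mean minus WT mean (log2) for each ChIP at each member start site, as coloured points, beside all 26544 regions of the WT K4-K27 table (grey line, 5th to 95th percentile; box, middle 50%; black line, median). The K4-K27 differences of the members run from -6.70 to -1.18, against a median of -0.34 for all regions, and the total H3K27me3 differences from -2.59 to 0.19.

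Gm1979, Pdzrn4 and Fem1al were lower in all 4 ChIPs, and at each of them the fall by reads was larger in both reChIPs than in either total. Csf1 and Lmo1 start 2, described below, shared both traits. The Gm1979 region is on chromosome 5 of GRCm38.p6 (mm10), intergenic with respect to Gm1979, a predicted gene of unknown function on the minus strand, and it overlaps the annotated pseudogene Gm5067. Its sequence is shown because the region stands apart from the gene's own start: the 300 bases at the region centre hold 29 CpG dinucleotides (capitals), against 2 in the window at the annotated start. Over 32851 mouse promoter windows of the same length (250 bases before to 50 after a start, RefSeq, GRCm38.p6) the median was 7.
Gm1979 region centre, chr5:26007076-26007375, minus strand: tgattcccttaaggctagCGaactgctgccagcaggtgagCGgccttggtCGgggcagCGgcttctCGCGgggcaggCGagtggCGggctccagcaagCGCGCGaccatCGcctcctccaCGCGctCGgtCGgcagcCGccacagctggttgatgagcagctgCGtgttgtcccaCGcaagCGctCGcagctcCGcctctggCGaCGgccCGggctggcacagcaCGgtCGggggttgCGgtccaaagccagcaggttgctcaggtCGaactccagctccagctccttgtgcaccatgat

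The total H3K4me3 level at Gm1979 was 3.37 and 2.11 in WT clones 57 and 58 and -1.03 and -0.51 in DKO clones 43 and 53, and total H3K27me3 was 2.74 and 1.65 in the WT clones and -0.93 and 0.13 in the DKO clones. K4-K27 was 4.76 and 4.00 in the WT clones and -2.83 and -1.81 in the DKO clones, and K27-K4 was 4.78 and 3.98 in the WT clones and -0.66 and 0.51 in the DKO clones. The groups did not overlap in any ChIP, and the IgG–IgG level of WT clone 57 there was -1.33, above both DKO values of K4-K27 and below both of K27-K4. The K4-K27 difference of -6.70 (pooled SD 0.64, 2 clones a group) rests on 337.0 and 231.0 reads in the WT clones and 2.0 and 5.0 in the DKO clones, a depth-scaled loss of 95.6-fold (95% interval 46.1 to 239), where the exact binomial interval covers counting error only. For K27-K4 the loss was 22.1-fold (95% interval 16.7 to 29.7). The region is repeated in the genome: it had 23 other matches of at least 95% identity, all on chromosome 5, and 1 of them, chr5:25956171-25957521, covered the whole length at 97.1% identity. Reads were kept only at a mapping quality over 20, so reads that fit several copies equally well are missing from these values, and how far the copies share reads was not tested.

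Pdzrn4 encodes a RING finger protein with PDZ domains, of a family that includes ubiquitin ligases. It has a pair of annotated start sites on the plus strand of chromosome 15, start 1 at 92396810 and start 2 at 92597109. Their windows are shown together because the reChIP levels and their DKO difference were larger at start 1.
Pdzrn4 start 1, chr15:92396560-92396859, plus strand: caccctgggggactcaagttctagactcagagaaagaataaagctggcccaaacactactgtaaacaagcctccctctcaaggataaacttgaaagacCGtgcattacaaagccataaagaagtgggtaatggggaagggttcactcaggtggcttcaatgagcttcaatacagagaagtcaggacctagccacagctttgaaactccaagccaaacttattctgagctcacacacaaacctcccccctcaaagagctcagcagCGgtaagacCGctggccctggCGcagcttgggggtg
Pdzrn4 start 2, chr15:92596859-92597158, plus strand: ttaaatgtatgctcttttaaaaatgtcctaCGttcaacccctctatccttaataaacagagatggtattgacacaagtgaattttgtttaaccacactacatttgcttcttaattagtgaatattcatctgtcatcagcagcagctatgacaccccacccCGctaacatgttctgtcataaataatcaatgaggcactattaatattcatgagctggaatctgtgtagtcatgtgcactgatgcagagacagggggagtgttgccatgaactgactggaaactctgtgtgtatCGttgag

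CpG dinucleotides, in capitals, number 4 and 3 in these windows, both under the promoter median of 7, although the whole start 1 region (chr15:92396401-92398200, which covers the first exon) holds 77 of them, or 4.28 per 100 bases against a median of 3.38 over all WT K4-K27 regions. At start 1, total H3K4me3 was 2.60 and 0.90 in the WT clones and -1.91 and -0.69 in the DKO clones, and total H3K27me3 was 2.22 and 1.25 in the WT clones and -0.95 and -0.17 in the DKO clones. K4-K27 was 4.08 and 3.40 in the WT clones and -1.08 and -3.55 in the DKO clones, and K27-K4 was 4.53 and 3.56 in the WT clones and -2.39 and -1.04 in the DKO clones. All DKO values were negative and below all WT values. The IgG–IgG level at this region, 0.93, was the highest among the members and slightly above the total H3K4me3 of WT clone 58. The reChIPs fell from 282 and 204 reads to 9 and 2 for K4-K27, a loss of 52.1-fold (95% interval 28.8 to 105), and by 54.5-fold (95% interval 36.1 to 86.4) for K27-K4. The values with a DKO clone left out lay outside the K4-K27 counting interval, since the K4-K27 difference of -6.05 became -7.29 without DKO clone 43 and -4.82 without DKO clone 53. The K27-K4 difference ran from -6.43 to -5.08 with a clone left out. Start 2 had a region in the E14 K4-K27 table (chr15:92596801-92598000), and there K4-K27 was 0.53 and -1.10 in the WT clones and -0.08 and -1.15 in the DKO clones and K27-K4 was -0.79 and -0.11 in the WT clones and -0.56 and -0.19 in the DKO clones. The groups overlapped at start 2 in both orders, with differences of -0.33 and 0.07. Total H3K27me3 at start 2 was -0.22 and -0.77 in the WT clones and -0.65 and -0.34 in the DKO clones, and overlapped as well. Total H3K4me3 at start 2 was 0.70 and -0.15 in the WT clones and -0.27 and -0.54 in the DKO clones, and there the groups did not overlap (difference -0.68).

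Fem1al is a gene similar to Fem1a, whose family encodes substrate receptors of cullin-RING ubiquitin ligases. It lies inside an intron of Eml6 on chromosome 11, and its region (chr11:29823601-29826600) covers the start at 29825668 and 2068 bases of Fem1al exon. The window at its start, with 2 CpG in capitals, is shown because a CpG-poor start lies beside the CpG-rich gene body here: the region as a whole holds 121 CpG.
Fem1al, chr11:29825619-29825918, minus strand: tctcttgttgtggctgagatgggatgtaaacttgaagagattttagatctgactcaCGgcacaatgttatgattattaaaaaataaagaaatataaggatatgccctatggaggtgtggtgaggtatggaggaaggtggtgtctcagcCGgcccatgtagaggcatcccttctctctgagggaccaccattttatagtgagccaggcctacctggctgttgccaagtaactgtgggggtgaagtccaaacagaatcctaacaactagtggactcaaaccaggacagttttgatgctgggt

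At Fem1al, total H3K4me3 was 1.77 and 0.75 in the WT clones and -1.35 and -1.48 in the DKO clones, and total H3K27me3 was 1.90 and 1.19 in the WT clones and -1.02 and -0.69 in the DKO clones. K4-K27 was 2.68 and 2.48 in the WT clones and -4.98 and -2.96 in the DKO clones, from 178.0 and 179.0 reads in the WT clones and 1.0 and 5.0 in the DKO clones, and K27-K4 was 3.64 and 2.72 in the WT clones and -1.54 and -0.88 in the DKO clones. Every DKO value was below every WT value and below the IgG–IgG level of 0.49. The K4-K27 loss by reads was 70.1-fold (95% interval 31.9 to 192) for counting error alone, and the difference was -5.54 without DKO clone 43 and -7.56 without DKO clone 53. The difference of -6.55 became -5.13 when 0.1 was added to the linear values before taking logs. A stretch of 1943 bp matches the Fem1a locus on chromosome 17 at 97.0% identity. K4-K27 at Fem1a was 2.88 and 2.16 in the WT clones and 2.67 and 2.22 in the DKO clones (difference -0.07, SE 0.59, adjusted p = 0.971, limma), and the values of the groups overlapped there. K27-K4 over the same region was lower, at 0.08 and -0.29 in the WT clones and -0.01 and 0.79 in the DKO clones. Bivalency at Fem1a is therefore not read from its K4-K27 values.

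**Figure D2:**
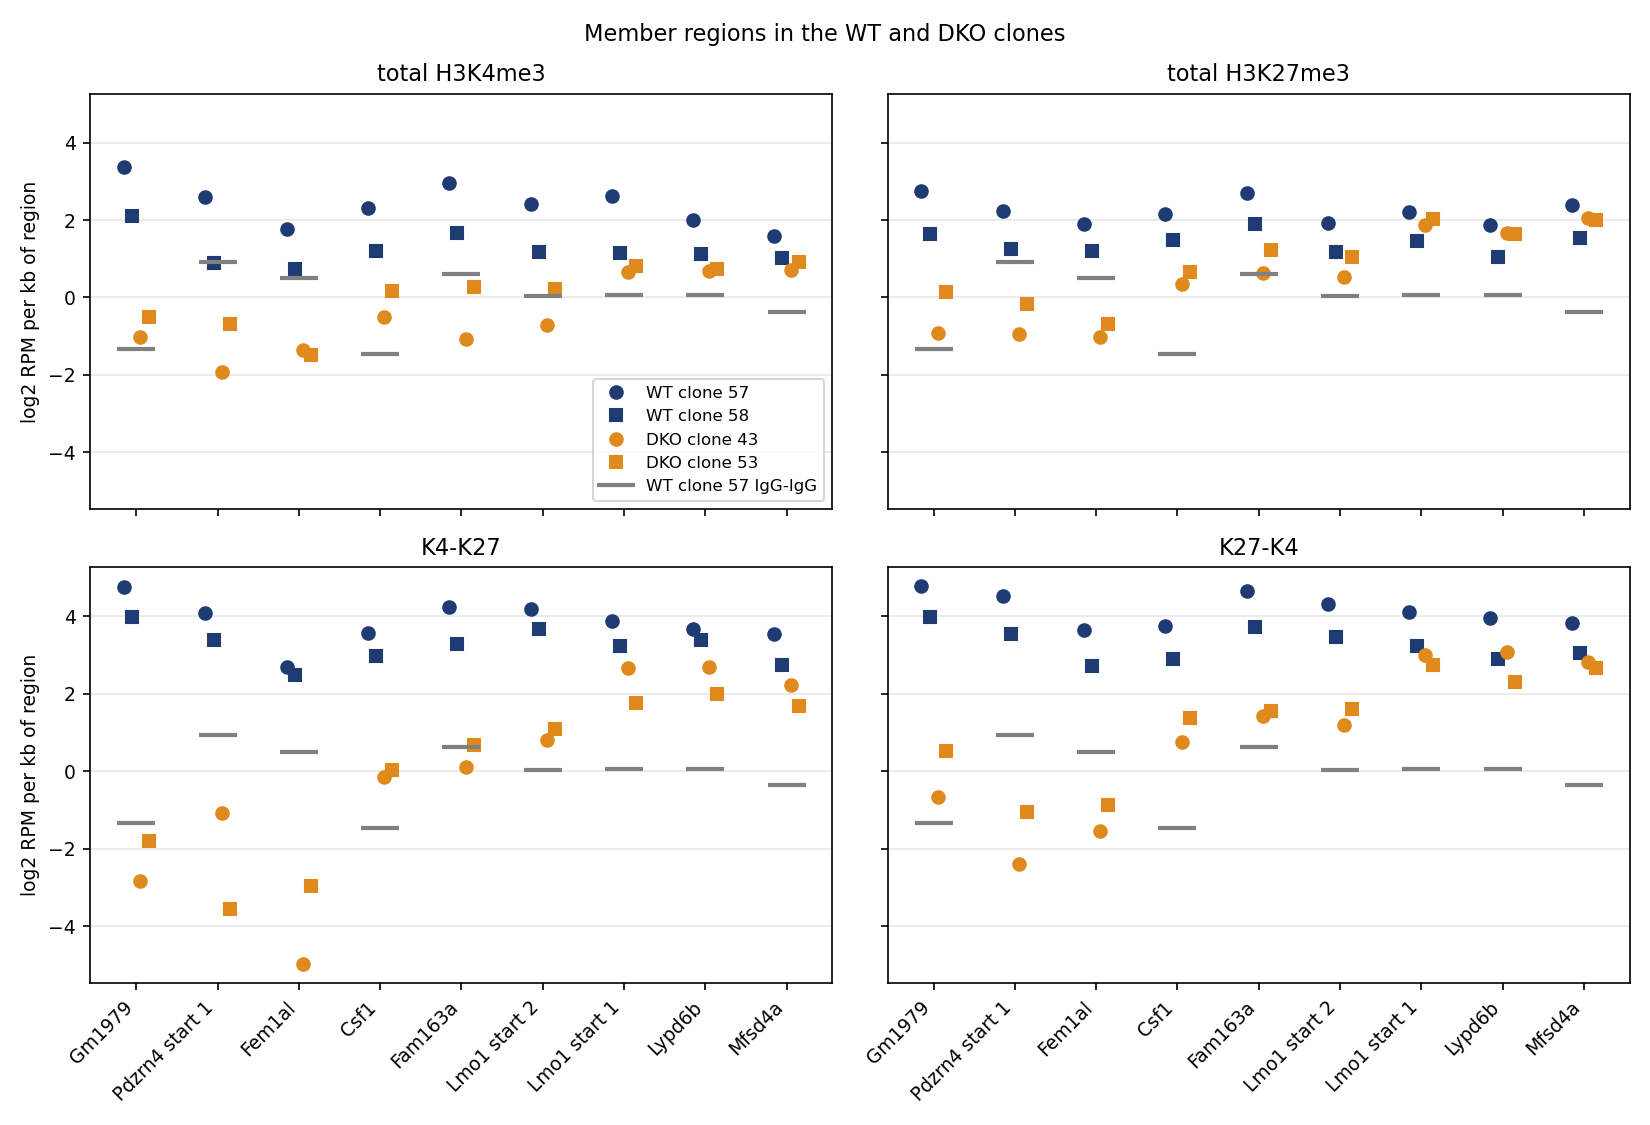
Level (log2 RPM per kb) of each ChIP at the 9 member start sites with a region in the WT K4-K27 table, 1 point per clone, with the IgG–IgG level of WT clone 57. At Gm1979, Pdzrn4 start 1 and Fem1al the DKO K4-K27 levels lie between -4.98 and -1.08, while at Lmo1 start 1, Lypd6b and Mfsd4a they lie between 1.70 and 2.70.

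Csf1, Fam163a and the downstream start of Lmo1 lost less. Csf1 encodes macrophage colony-stimulating factor, the ligand of the receptor CSF1R that supports macrophages, and its region (chr3:107758501-107760900) covers the start and first exon. Total H3K4me3 at Csf1 was 2.31 and 1.20 in the WT clones and -0.50 and 0.16 in the DKO clones, and total H3K27me3 was 2.16 and 1.47 in the WT clones and 0.35 and 0.66 in the DKO clones. K4-K27 was 3.57 and 2.97 in the WT clones and -0.14 and 0.04 in the DKO clones, and K27-K4 was 3.74 and 2.89 in the WT clones and 0.76 and 1.38 in the DKO clones. The groups did not overlap in any ChIP, and all DKO values stayed above the IgG–IgG level of -1.46. By reads the K4-K27 loss was 9.98-fold (95% interval 7.54 to 13.5), and that of K27-K4 was 4.95-fold (95% interval 4.24 to 5.81).

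Fam163a, a little-characterised protein-coding gene on chromosome 1, had a region from 156203701 to 156205800. Total H3K4me3 was 2.96 and 1.68 in the WT clones and -1.08 and 0.26 in the DKO clones, and total H3K27me3 was 2.69 and 1.90 in the WT clones and 0.64 and 1.21 in the DKO clones. K4-K27 was 4.26 and 3.29 in the WT clones and 0.12 and 0.69 in the DKO clones, and K27-K4 was 4.66 and 3.74 in the WT clones and 1.42 and 1.56 in the DKO clones. No DKO value reached a WT value. The total H3K27me3 of the DKO clones and their K27-K4 stayed above the IgG–IgG level of 0.62. Their total H3K4me3 was below it, and their K4-K27 lay on both sides of it. The K4-K27 loss was 10.2-fold (95% interval 7.96 to 13.4) by reads.

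Lmo1 encodes a LIM-only transcriptional cofactor that is an oncogene in T-cell leukaemia. Its start sites on the minus strand of chromosome 7 are less than 5 kb apart, at 109175207 (start 1) and 109170519 (start 2), and each has its own region. At start 2 (chr7:109168801-109170900), K4-K27 was 4.19 and 3.68 in the WT clones and 0.82 and 1.09 in the DKO clones, and K27-K4 was 4.31 and 3.46 in the WT clones and 1.21 and 1.60 in the DKO clones. Total H3K4me3 there was 2.42 and 1.17 in the WT clones and -0.71 and 0.21 in the DKO clones, and total H3K27me3 was 1.93 and 1.18 in the WT clones and 0.52 and 1.04 in the DKO clones. At start 1 (chr7:109174051-109176300), K4-K27 was 3.89 and 3.23 in the WT clones and 2.66 and 1.77 in the DKO clones, and K27-K4 was 4.12 and 3.23 in the WT clones and 2.99 and 2.74 in the DKO clones. Total H3K4me3 was 2.63 and 1.16 in the WT clones and 0.65 and 0.80 in the DKO clones, and total H3K27me3 was 2.20 and 1.45 in the WT clones and 1.88 and 2.04 in the DKO clones. The groups were separate at both starts in the reChIPs and in total H3K4me3, and in total H3K27me3 they overlapped at start 1 alone. The K4-K27 loss was 7.80-fold (95% interval 6.29 to 9.76) at start 2 and 2.52-fold (95% interval 2.17 to 2.94) at start 1, where the intervals cover counting error only. The E14 reChIP tables hold a single region of both starts, over which the K4-K27 difference was -1.49.

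Among the member regions of the WT K4-K27 table, Lypd6b and Mfsd4a showed the smallest differences in both reChIPs and in total H3K4me3. Lypd6b encodes a small surface protein of the Ly6 family that acts on nicotinic acetylcholine receptors, and its region (chr2:49785601-49788600) covers the start at 49787683. K4-K27 at Lypd6b was 3.67 and 3.39 in the WT clones and 2.70 and 1.99 in the DKO clones, and K27-K4 was 3.96 and 2.90 in the WT clones and 3.08 and 2.31 in the DKO clones. Total H3K4me3 was 2.00 and 1.13 in the WT clones and 0.67 and 0.74 in the DKO clones, and total H3K27me3 was 1.88 and 1.04 in the WT clones and 1.67 and 1.63 in the DKO clones. The clones of each genotype were separate in K4-K27 and total H3K4me3 and overlapped in K27-K4 and total H3K27me3. By reads, the K4-K27 loss was 2.26-fold (95% interval 1.99 to 2.58).

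Mfsd4a encodes a membrane protein of the major facilitator superfamily of transporters, and its region is chr1:132066751-132069600. Its K4-K27 was 3.55 and 2.76 in the WT clones and 2.24 and 1.70 in the DKO clones, and its K27-K4 was 3.84 and 3.07 in the WT clones and 2.83 and 2.66 in the DKO clones. Total H3K4me3 was 1.60 and 1.01 in the WT clones and 0.71 and 0.91 in the DKO clones, with the smallest gap between groups of any member, and total H3K27me3 was 2.40 and 1.53 in the WT clones and 2.06 and 1.99 in the DKO clones. By reads, and for counting error only, the ratio of WT to DKO was 2.32-fold (95% interval 1.99 to 2.70) for K4-K27. The gap between the WT clones in total H3K4me3 was larger than the difference of -0.49 between the group means. The DKO values of total H3K27me3 at this promoter lay between those of the WT clones. The windows at Mfsd4a and at Lmo1 start 1 are shown as the most CpG-rich of the start windows counted (all but those of Lmo1 start 2 and Lypd6b), with 28 and 29 CpG (capitals), against 4 and 2 at Pdzrn4 start 1 and Fem1al.
Lmo1 start 1, chr7:109175158-109175457, minus strand: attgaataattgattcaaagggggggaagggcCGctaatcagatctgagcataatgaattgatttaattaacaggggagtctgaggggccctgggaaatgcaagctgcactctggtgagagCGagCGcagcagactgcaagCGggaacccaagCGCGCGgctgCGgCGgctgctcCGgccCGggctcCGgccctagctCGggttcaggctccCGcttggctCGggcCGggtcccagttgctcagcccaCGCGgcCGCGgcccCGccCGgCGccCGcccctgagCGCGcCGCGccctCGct
Mfsd4a, chr1:132068013-132068312, minus strand: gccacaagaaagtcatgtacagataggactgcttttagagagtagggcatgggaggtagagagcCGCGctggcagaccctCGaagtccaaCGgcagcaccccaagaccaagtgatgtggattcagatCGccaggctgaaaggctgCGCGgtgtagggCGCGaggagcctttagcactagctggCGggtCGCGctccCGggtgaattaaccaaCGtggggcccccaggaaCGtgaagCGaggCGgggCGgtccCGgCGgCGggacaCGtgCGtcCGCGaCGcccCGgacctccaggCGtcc

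The CpG counts of these windows ran from 2 to 29, and Csf1 and Fam163a, with 16 and 14, lay between. The 9 member regions of the WT K4-K27 table held 3.33 to 4.93 CpG per 100 bases and had a GC content of 54.6% to 58.8%, against medians of 3.38 and 53.1% over all regions of that table. Over these whole regions the order was another one: 3.33 at Csf1, 3.44 at Mfsd4a, 3.67 at Fam163a, 4.03 at Fem1al and 4.17 at Lypd6b. It was 4.28 at Pdzrn4 start 1, 4.30 at Gm1979, 4.71 at Lmo1 start 2 and 4.93 at Lmo1 start 1. A relation between CpG content and the DKO difference was not tested. The Pdzrn4 start 2 region, from the E14 table, held 1.83 CpG per 100 bases at a GC content of 41.8%.

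**Figure D3:**
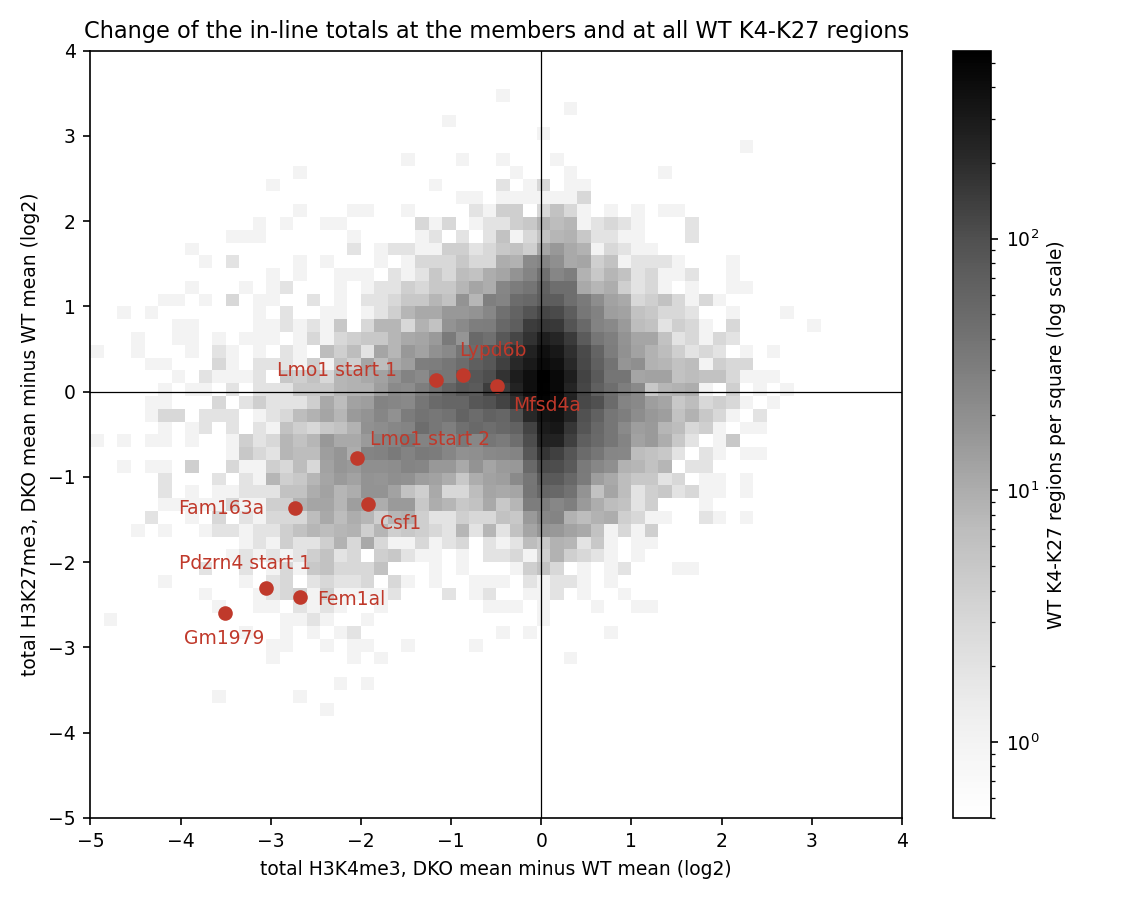
Change of the in-line totals, with the DKO minus WT difference of total H3K4me3 on the x axis and of total H3K27me3 on the y axis (both log2), for the member start sites (red) and the density of all 26544 WT K4-K27 regions (grey, log scale of regions per square). Gm1979, Pdzrn4 start 1 and Fem1al lie at differences under -2 in both totals, and Lmo1 start 1, Lypd6b and Mfsd4a lie at 0.06 to 0.19 for total H3K27me3.

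Removing either WT clone kept the sign of the K4-K27 median of the members, at -2.95 without clone 57 and -3.74 without clone 58. Single values moved further. At the members with the smallest differences, total H3K27me3 changed sign: without WT clone 58 it was -0.23 at Lmo1 start 1, -0.23 at Lypd6b and -0.38 at Mfsd4a, and without WT clone 57 it was 0.51, 0.62 and 0.50. The K27-K4 difference at Lypd6b was -1.26 without WT clone 58 and -0.20 without WT clone 57, and the total H3K4me3 difference at Lmo1 start 1 was -1.91 and -0.43. The choice of region also moved the values. The E14 K4-K27 regions are wider at each member but Gm1979, whose region is the same in both tables, up to 16200 bp at Lmo1, and over them the medians were -2.44 and -1.93 in the reChIPs (K4-K27, K27-K4) and -1.46 and -1.08 in the totals (H3K4me3, H3K27me3).

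The E14 libraries did not enter the DKO against WT contrast and give the members' state in unmodified cells. Gm1979 was already known to be among the highest reChIP regions there, and the study lists Csf1 and Lmo1 among its bivalent loci. High E14 reChIP levels are therefore partly fixed by the choice of the members. In replicates 1 and 2, K4-K27 was 2.94 and 3.98 at Gm1979, 1.76 and 2.19 at Pdzrn4 start 1, 1.87 and 2.29 at Fem1al and 1.69 and 1.54 at Csf1. It was 2.29 and 2.61 at Fam163a, 1.89 and 2.14 over both Lmo1 starts, 1.77 and 1.84 at Lypd6b and 2.09 and 1.97 at Mfsd4a. The members other than Gm1979 sat close together, within 1.54 to 2.61 in replicate 2, and their order was not the order of their loss in DKO clones. All 8 exceeded the E14 IgG–IgG level in both replicates, by at least 2.20 and 2.09, where 81.8% of all 24540 regions did so in replicate 1 and 24537 of them in replicate 2. K27-K4 ran from 1.03 (Csf1) to 3.66 (Gm1979) in replicate 1 and from 2.42 to 5.25 in replicate 2, again with Csf1 lowest and Gm1979 highest.

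The in-line totals in E14 cells came next. Total H3K27me3 ran from 0.22 to 0.92 in replicate 1 and from 0.20 to 0.94 in replicate 2, above the all-region medians of -0.40 and -0.44 at every member. Total H3K4me3 had member medians of 0.03 and -0.18, below the all-region medians of 0.18 and 0.27. Gm1979 went the other way, with total H3K4me3 of 1.52 and 1.02, above those medians and above its total H3K27me3 of 0.70 and 0.60. At Mfsd4a the total H3K4me3 values of -0.27 and -0.22 lay under the IgG–IgG level of -0.12. Pdzrn4 start 2, with K4-K27 of 0.42 and 0.86, was below start 1 in both replicates.

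**Figure D4:**
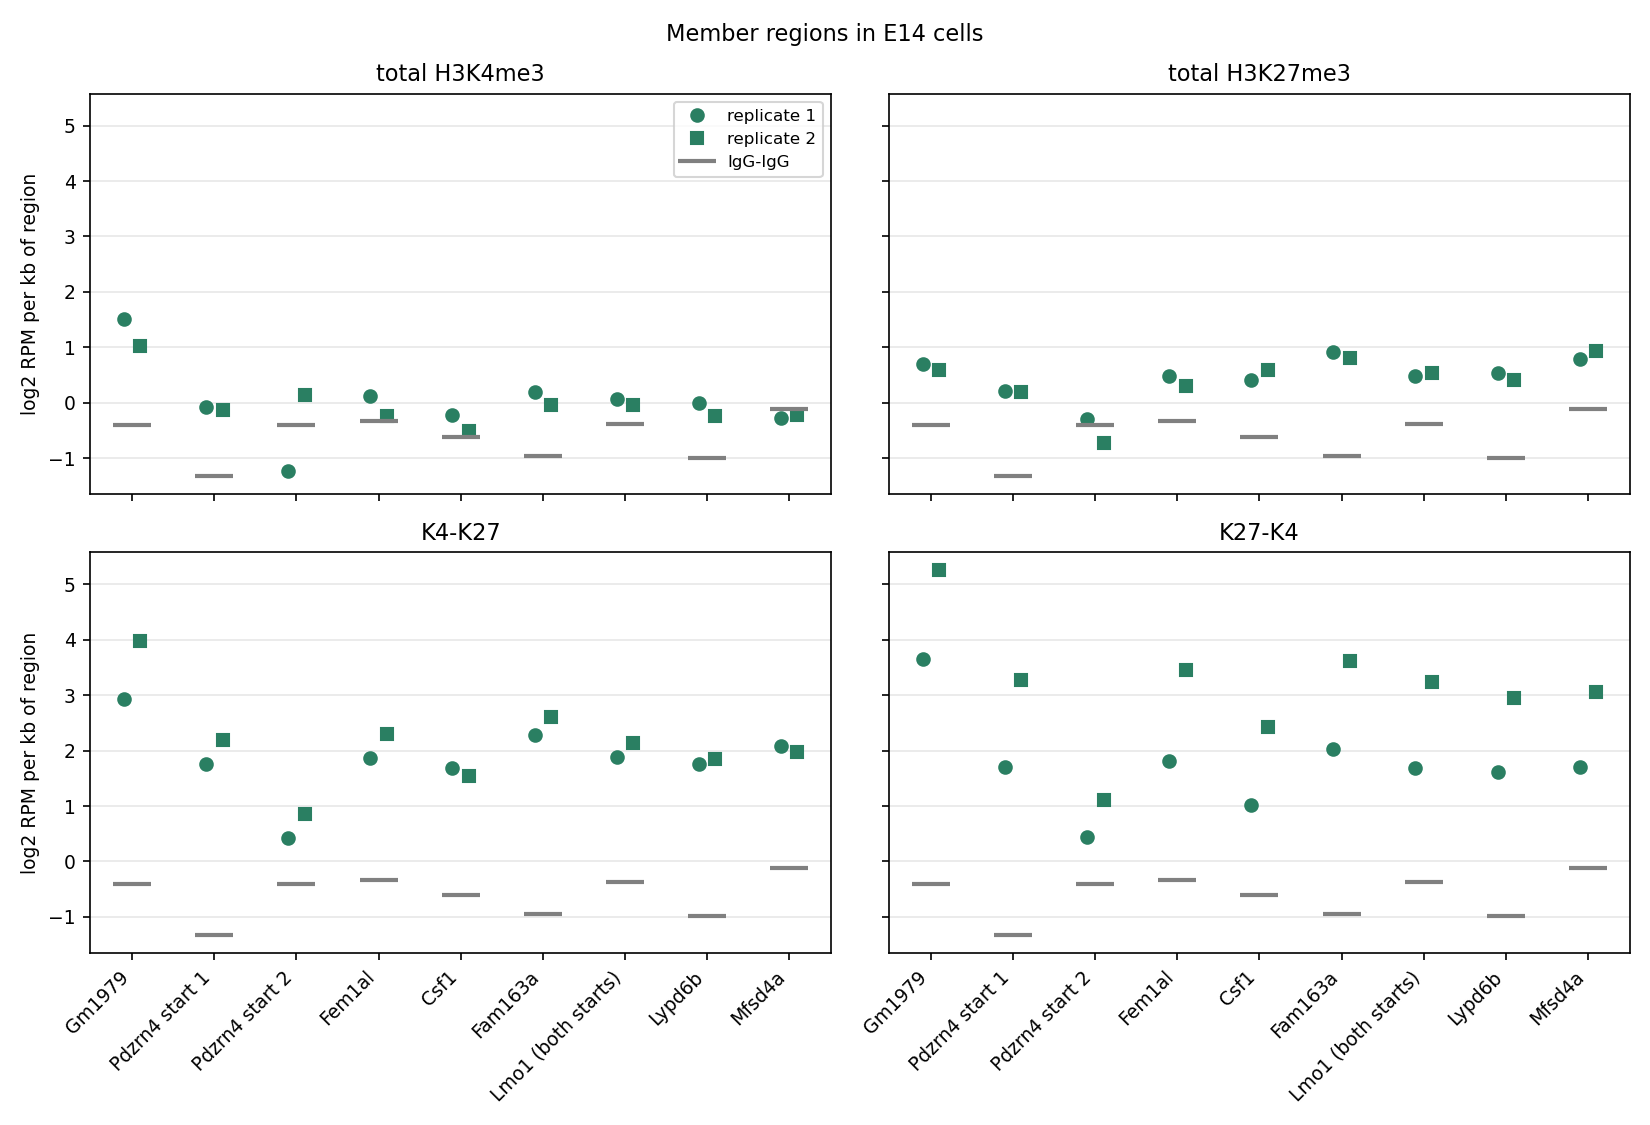
Level (log2 RPM per kb) in E14 cells at the member start sites, 1 point per replicate for each ChIP, with the single IgG–IgG library. K4-K27 and K27-K4 lie above IgG–IgG in both replicates at every site, and K27-K4 reaches 3.66 and 5.25 at Gm1979.

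The reChIP levels of the members were compared with the single ChIP in E14 cells with limma over all regions, with a call at a difference beyond 1 and an adjusted p under 0.05. The members enter these fits through regions listed for the reChIP itself, and Fem1al and Mfsd4a had no region in the E14 total H3K4me3 table, nor Gm1979 and Lmo1 in the E14 total H3K27me3 table. The direction of these differences is therefore tied to how the regions were chosen, and the values are given as a description of the members' levels. K4-K27 minus total H3K4me3 lay between 1.93 (Lypd6b, SE 0.56) and 2.37 (Fam163a, SE 0.44). None of the 8 was called by limma, with adjusted p from 0.0922 to 0.133, and 0.0% of the 31146 regions tested were called. An unadjusted p under 0.05 was found at 8 of 8 members and at 7493 of all regions. With the replicate number as a block 8 of 8 were called, with adjusted p up to 0.0194 (limma), where 15.4% of all regions were called higher.

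K27-K4 minus total H3K27me3 had a median of 1.95 over the members and of 1.18 over all 49084 regions, and 5 members were called by limma, where 43.0% of the regions were called higher. These were Gm1979 (3.81, SE 1.19, adjusted p = 0.00485, limma), Pdzrn4 (2.28), Fem1al (2.25), Lmo1 (1.94) and Lypd6b (1.81). Fam163a (1.96, SE 0.95), Mfsd4a (1.51, SE 0.88) and Csf1 (1.22, SE 0.74) missed the threshold. With the replicate block Gm1979 alone was called (adjusted p = 0.0481, limma), where 29.5% of regions were called higher.

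Both comparisons rest on 2 replicates a group and depended on single libraries. Where 1 library was left out, limma took the spread from the group that kept both, and the lone library was assumed to vary like it. Leaving out K4-K27 replicate 1 or 2 gave 8 calls each against total H3K4me3 (24.3% and 24.4% of regions called higher), and leaving out total H3K4me3 replicate 1 or 2 gave 1 and 2 (0.0867% and 1.77%). Against total H3K27me3 there were 8 calls without K27-K4 replicate 1 (60.1%), 6 without replicate 2 (40.1%) and 0 without total H3K27me3 replicate 1 or 2 (8.47% and 3.53%).

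The order of the antibodies was compared next. K27-K4 minus K4-K27 ranged from 0.11 at Csf1 to 0.99 at Gm1979 (SE 1.00), where the median over all 38918 regions was 0.67. No member was called by limma (lowest adjusted p = 0.799), none had an unadjusted p under 0.05, and 0.0% of the regions were called. With the replicate number as a block no member was called either, where 6.42% of the 38918 regions were called (5.12% higher). Centring the libraries on their medians shifts all regions alike, and the members then ran from -0.44 to 0.45, so no direction is read from these values. The sign also differed between replicates. In replicate 1 the difference was below 0 at every member but Gm1979 (0.72), and in replicate 2 it lay between 0.89 and 1.27. The all-region medians were 0.49 and 0.71.

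The surroundings of the members were described by every region within 200 kb of a start site, chosen by position. For K4-K27, 7 of 54 such neighbours were called lower in DKO clones and 0 higher by limma, where 1.96% of all 37723 regions were called lower. For K27-K4 it was 6 of 74 (1.44% of 46737), and for total H3K4me3 5 of 63 were lower and 1 was higher (4.57% called in either direction of 43065). For total H3K27me3, 0 of 80 were called by limma, 13 had an unadjusted p under 0.05, and 0.416% of 43057 regions were called. The called neighbours lay at 4 of the 8 loci in the reChIPs, and the median over all neighbours was -0.27 in K4-K27, against -0.49 in the other order.

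At Gm1979 both neighbours in the reChIP tables fell. The one near Gm21671 (chr5:25956301-25957350) is the near-identical copy given above, and its K4-K27 was 1.77 and 1.21 in the WT clones and -3.62 and -2.18 in the DKO clones (adjusted p = 0.0408, limma). The one nearest to Gm7347, 65274 bp upstream, was at 3.03 and 2.83 against -0.92 and 0.66 (adjusted p = 0.000925, limma). It is repeated too, with 975 other matches on 21 chromosomes that cover 37.0% of its length. Without the neighbours of Gm1979 the counts called were 5 (K4-K27) and 4 (K27-K4).

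The nearest K4-K27 regions on each side of a member are given whatever their value. Some are promoters high in total H3K4me3 (in WT clone 57, 3.48 at Ahcyl1, 3.39 at Elk4 and 3.18 at Tdrd5). This order alone does not separate carry-over from double-marked nucleosomes there. Upstream of Fam163a, Tdrd5, a Tudor domain gene of the male germ line, was at 3.87 and 3.13 in the WT clones and 3.75 and 2.85 in the DKO clones (difference -0.20, SE 0.64, adjusted p = 0.918, limma). The others included promoters with differences near 0: -0.18 at Ahcyl1 (63619 bp from Csf1), -0.15 beside Eml6 and -0.35 at Rtn4 (198333 and 130918 bp from Fem1al), -0.12 at Cdk18 and -0.21 at Elk4 (70089 and 59062 bp from Mfsd4a), 0.50 at Tor1aip2 (163026 bp from Fam163a) and 0.44 at Gm26760 (51860 bp from Pdzrn4). The nearest regions around Lmo1 were at -1.43 and -0.07, and those around Lypd6b, both far from any start site, at -2.70 and -2.47. Upstream of Csf1 and downstream of Pdzrn4 the nearest regions were at 3.62 and 3.87, with 0 reads in both WT clones. Apart from the pair at Gm1979, none of these nearest regions was called by limma. In K27-K4 the nearest regions upstream and downstream were at 0.69 and -0.21 (Csf1), -0.63 and 0.62 (Fam163a) and -2.26 and 2.78 (Fem1al). They were at -1.18 and -0.81 (Lmo1), 0.31 and -2.14 (Lypd6b), 0.35 and 1.06 (Mfsd4a) and 1.01 and -3.77 (Pdzrn4). None of these K27-K4 regions was called by limma either.

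Further called neighbours included Ric3, a chaperone of nicotinic acetylcholine receptors 91157 bp from Lmo1 (K4-K27 difference -3.05, SE 0.62) and, at the Csf1 locus, the glutathione S-transferase gene Gstm5 (-2.24, SE 0.63). Ric3 was also called in K27-K4. At the Fam163a locus 1 of 7 neighbours was called lower by limma in K4-K27, 1 of 7 in K27-K4 and 1 of 5 in total H3K4me3. The lowest K4-K27 difference among the neighbours of Fam163a was -3.81. The calls for the neighbours depended on single clones. The number of calls over all regions also moved with the clone left out, so the counts below are not read as changes of the neighbours. For total H3K4me3, 0 were called without DKO clone 43 or without DKO clone 53, and 12 without WT clone 58. Without DKO clone 53, 0 were called for K27-K4, without WT clone 57, 2 were, and without WT clone 58, 10 were. For K4-K27 the count was 4 without WT clone 57.

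**Figure D5:**
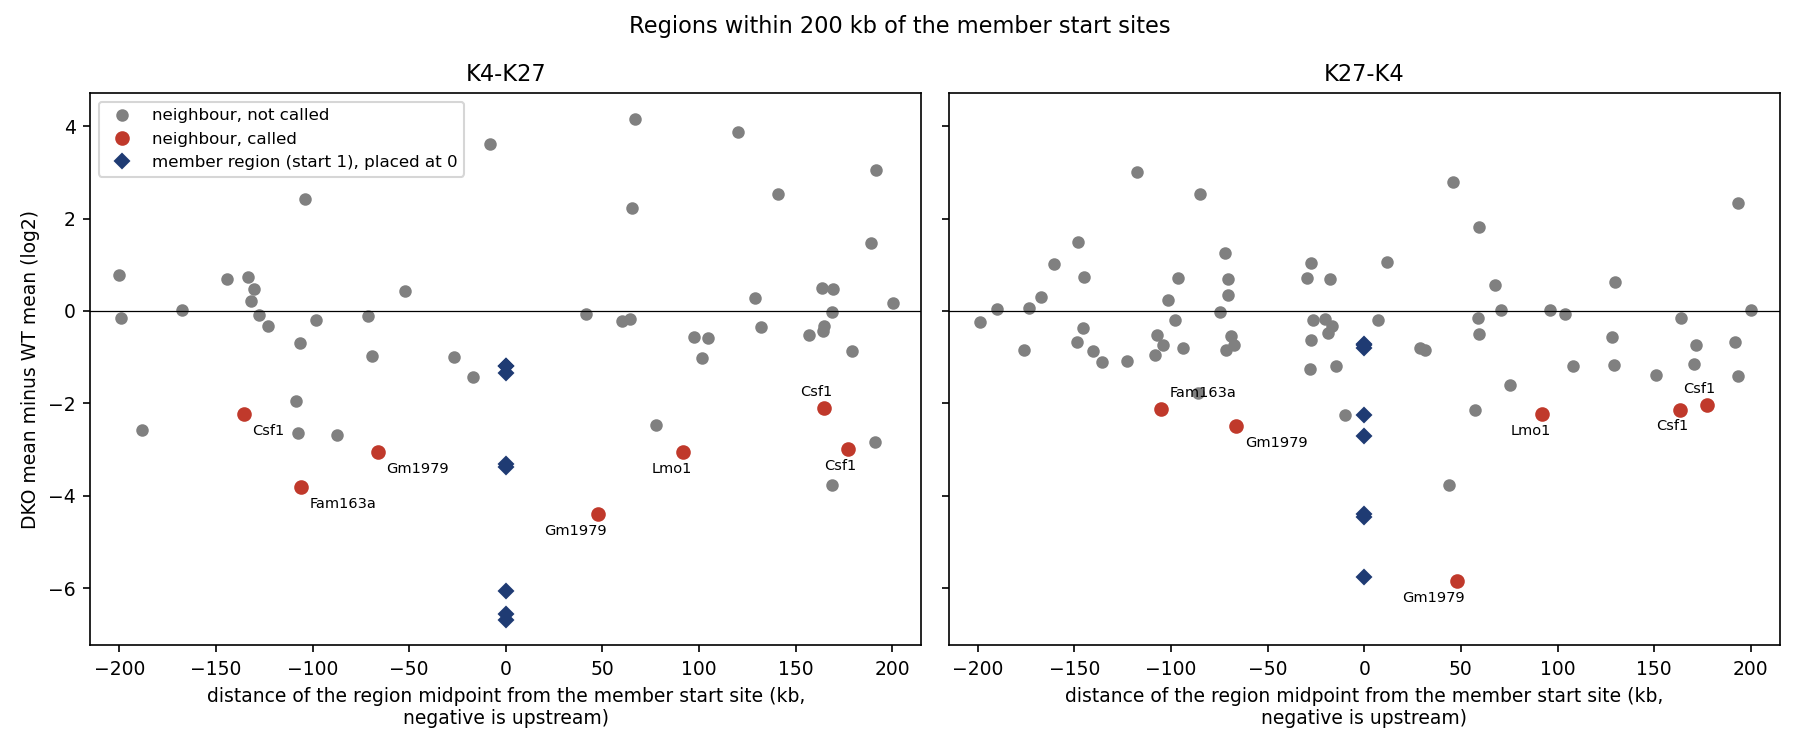
DKO mean minus WT mean (log2) of every neighbouring region within 200 kb, against the distance of its midpoint from the member start site (kb, negative is upstream), for K4-K27 (left) and K27-K4 (right). Called neighbours are red and carry the name of the member whose locus they lie in, and members are blue diamonds at 0, with 7 called neighbours on the left and 6 on the right.

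Genes related to the members by family or pathway were examined next. Of 21 listed, 17 had regions of total H3K4me3, 18 in all, and 1 was called by limma, against 4.57% of all regions. This was Mfsd4b1, a paralog of Mfsd4a, at 3.02 and 1.92 in the WT clones and 0.23 and 0.22 in the DKO clones (difference -2.24, SE 0.64, adjusted p = 0.0168, limma), and it was not called without either DKO clone. Its K4-K27 difference was -1.88 (adjusted p = 0.0599, limma). In K4-K27 (18 regions), K27-K4 (15) and total H3K27me3 (11), 0 were called by limma and 1 in each had an unadjusted p under 0.05, where 1.96% (lower), 1.44% (lower) and 0.416% of all regions were called. With so few regions a count of 0 is near these shares, and nothing particular to the related genes is read from it. The K4-K27 differences of Fem1b (-0.24), Pdzrn3 (-0.84), Lmo2 (-0.75), Lypd6 (-0.23) and Fam163b (-0.58) were among those not called by limma.

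Each member's pattern over the 24 libraries other than IgG–IgG was compared with that of every other gene in the E14 K4-K27 regions, as a description. The libraries share antibodies, depth and clone, which raises all such correlations, and they include the DKO and WT values by which the members were chosen, so similar DKO minus WT differences are built in. Among the 3 closest genes were Gp5 (Pearson r = 0.983), Spata3 and Me3 for Gm1979, D330025C20Rik, Slc22a3 and Spata3 for Pdzrn4, and Me3 and D330025C20Rik for Fem1al. The K4-K27 differences (DKO minus WT) of these genes lay between -4.47 and -3.62 in the same regions. For Csf1 they were Slc34a2 and Pkp1, and for Fam163a Vsx1, Srd5a2 and Stac, with differences between -2.98 and -2.33. For Lmo1 they were Ascl5 (r = 0.992), Fndc1 and Fam83f, for Lypd6b Olig1, Slc24a4 and B830017H08Rik, and for Mfsd4a Gdf10, Kcnk15 and Rprml, with differences between -1.60 and -0.35. Among the members, Gm1979 correlated at 0.968 with Fem1al and at 0.546 with Mfsd4a.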

How the data were processed

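The authors trimmed reads with Trim Galore 0.6.6, aligned them to mm10 (GRCm38.p6) with BWA 0.7.13 and handled alignments with SAMtools 1.9 and Picard 2.6.0, per the paper's methods and the labels. The values that the authors deposited are log2 RPM per kb of region. Duplicate reads had not been removed, and IgG–IgG had not been subtracted. The paper's methods name EPIC2 for peak calling, and the submitters' processing notes also list MACS2. Whether the regions of these tables are those peaks is not given in the sources used here, and their edges lie on another grid than the stated EPIC2 bins. All values were whole multiples of 1 read within 0.01 read, which gave each library's depth (6741245 to 47903464 reads, median 16875029) and the reads behind each value. An empty region stands as 0.9 read. Of the columns, 32 match no sample here and were not used.

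The members and the lists of related genes and markers were chosen with earlier results of these data known. Start sites came from curated RefSeq (31601 sites). Groups were compared with limma 3.58.1 in R 4.3.3 (variance trend, robust) with Benjamini-Hochberg adjustment over all regions of a fit, and called at a log2 difference beyond 1 and adjusted p under 0.05. The study used a count test, and limma was used because the tables hold log2 values. Named were the members, the related genes, called neighbours, the nearest neighbour on each side, and the 3 genes closest in pattern to each member. Results for some of these genes are not reported here. Sequences and tables were handled in Python 3.11.15. Same-numbered E14 libraries share a sequencing batch per the labels, and their deviations correlated at 0.335 (K4-K27 and K27-K4), 0.454 (K4-K27 and total H3K4me3) and -0.156 (K27-K4 and total H3K27me3). When 200 simulated regions were shifted by 3, the limma fit of total H3K27me3 (43057 regions) found 94.0% of them, that of K27-K4 (46737) 41.0%, that of total H3K4me3 (43065) 39.5% and that of K4-K27 (37723) 30.0%. In the E14 fits it recovered 5.5% for the order in 38918 regions, 28.5% against total H3K4me3 in 31146 and 10.5% against total H3K27me3 in 49084.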

Additional observations from a re-analysis of the deposited data

How the results depend on the processing

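With 2 libraries a group, counts of calls depended on single libraries and on the variance model, and a region not called is not shown to be unchanged. The members' median DKO minus WT differences kept their sign in all 4 ChIPs under every alternative run, while single total H3K27me3 values near 0 changed sign with WT clone 58 left out (Lmo1 start 1, Lypd6b and Mfsd4a) and over the E14 region (Lmo1 start 1). The members' median differences over E14 regions, chosen after seeing the data, were -1.46 (total H3K4me3), -2.44 (K4-K27) and -1.93 (K27-K4), and the K4-K27 median ranged from -3.74 to -2.95 with a clone left out.

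Neighbours called for total H3K4me3 numbered 3 without the lowest quartile of means, 3 in WT-table regions alone and 3 within 100 kb, and 0 to 12 with a clone left out. For total H3K27me3 they numbered 1 in WT-table regions and 0 to 3 with a clone left out. For K4-K27 they were 12 without trend and robust variances, 3 within 100 kb and 4 to 7 with a clone left out. For K27-K4 they were 3 with libraries centred on their medians, 1 without trend and robust variances, 3 within 100 kb and 0 to 10 with a clone left out. Related genes called were 1 for K4-K27 with centring, 1 for K27-K4 without the lowest quartile and 1 in WT-table regions, 0 to 2 for K27-K4 and 0 to 1 for total H3K4me3 with a clone left out.

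In E14 cells, K4-K27 against total H3K4me3 gave 8 member calls with centring, where 3748 of the 31146 regions were called higher. It gave 8 with the replicate block, where 15.4% of regions were called higher. The members' median difference in this comparison ran from 1.91 to 2.26 with a library left out. K27-K4 against total H3K27me3 gave 3 member calls with centring, where 13846 of the 49084 regions were called higher. It gave 1 with the replicate block, where 29.5% of regions were called higher. The members' median difference here ran from 1.17 to 2.74 with a library left out. The antibody order gave 0 member calls with the replicate block, where 6.42% of regions were called. Its median difference over the members, 0.46, was -0.090 with the libraries centred on their medians and ran from -0.30 (without K27-K4 replicate 2) to 1.20 (without K27-K4 replicate 1). Centring moved the median of all regions from 0.67 to 0.12 for the order, from 1.18 to 0.36 for K27-K4 against total H3K27me3 and from -0.19 to 0.03 for K27-K4 in DKO against WT clones. The cause of these changes was not tested.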
